A study of Mus musculus with 2 samples.

Results

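The cytosolic ribosomal protein genes were compared between mouse embryonic fibroblasts (MEFs, connective tissue cells grown from embryos) that were homozygous for the disrupted Fut8 gene (Fut8-/-) and MEFs with both normal copies (Fut8+/+). Members were the genes with a probe set of their own whose symbol follows the naming pattern of ribosomal proteins, Rpl or Rps with a number (and a, l or x), or the stalk names Rplp with a number. This gave 48 genes of 18193 on the array, 42 canonical ribosomal proteins and 6 paralogs, and 103 of the array's 45101 probe sets. There was 1 array per genotype, so no difference below has a replicate check and none was tested. The series' design text names 3 cultures per genotype; how the 2 arrays relate to them, and how the lines were derived or passaged, is not stated in the labels. Both cultures were grown in serum-containing medium and differ, per the labels, in Fut8 genotype alone. Their sex-linked transcripts also differed, as given below (Xist at 15.2 in Fut8-/- and 656 in Fut8+/+). Sex and genotype therefore cannot be told apart in any difference reported here.

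A cytosolic ribosome is built from a large (60S) and a small (40S) subunit, each a core of ribosomal RNA clad in many proteins that are mostly present in a single copy, so their proteins are needed in matched amounts. Nearly every cell makes the full canonical set, whose messages carry a pyrimidine tract at their 5′ end through which mTOR signalling controls their translation. A few genes have a second, diverged copy that is used in particular tissues, such as Rpl39l in the male germ line and Rpl3l in striated muscle of the mouse. Fut8 encodes the enzyme that adds core fucose to N-glycans and has no known part in the ribosome.

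Signals are given as deposited. Log2 ratios are Fut8-/- over Fut8+/+, centred on the median of all probe sets above background on both arrays, which added 0.22 to each ratio; a scaled signal below 12.3 was raised to that floor, and a gene was called measured where its brighter array reached 39.1. Fut8 itself had a signal of 11.7 in Fut8-/- cells, against 191 in Fut8+/+ cells, at its brightest probe set, a log2 ratio of -3.81 or 14.1-fold lower. Of 16 fibroblast markers 12 were measured, with signals for vimentin (Vim) of 11110.5 in Fut8-/- and 11471 in Fut8+/+, while neither array reached that limit for Thy1, Dcn, Lum or Fap. Summed over the whole list without centring, the fibroblast markers came to 41340 in Fut8-/- and 50677 in Fut8+/+. Of the 12, 1 (8.33%) was at least 2-fold higher, against 6.08% of all measured genes. At least 2-fold lower were 5 (41.7%), against 8.46% of all measured genes. Among these 5, Prrx1 and Pdgfra (23.6 in Fut8-/- and 61.9 in Fut8+/+) reached the measured limit on the Fut8+/+ array alone, which fixes their direction. The 3 furthest apart were the mesenchymal transcription factor gene Prrx1 (7.26 in Fut8-/- and 221 in Fut8+/+, at least 17.9-fold lower), fibronectin (Fn1, 1254 in Fut8-/- and 4734 in Fut8+/+, 3.25-fold lower) and the collagen gene Col5a1 (2.98-fold lower). Probe sets of the same gene differed in log2 ratio with an SD of 0.40 (5389 genes), a technical spread within this pair of arrays that does not measure variation between cultures.

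The canonical ribosomal protein genes had closely matched signals on both arrays, and a single paralog, Rpl39l, stood far from all other members. Of 45 measured members 1 was at least 2-fold higher in Fut8-/-, against 6.08% of all 10164 measured genes, and 0 were at least 2-fold lower, against 8.46%. With a limit of 1.5-fold the counts were 4 higher, against 14.4% of all genes, and 0 lower, against 16.6%. These 4 were Rpl39l, Rpl22l1, Rps27 and Rps25. Most members were bright, and bright genes passed 2-fold less often. Of 1513 genes outside the family with both signals of at least 1000, 1.85% were at least 2-fold higher and 1.32% lower. The cultures were lysed whole, so more RNA per cell and more cells that make it cannot be told apart.

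**Figure D1:**
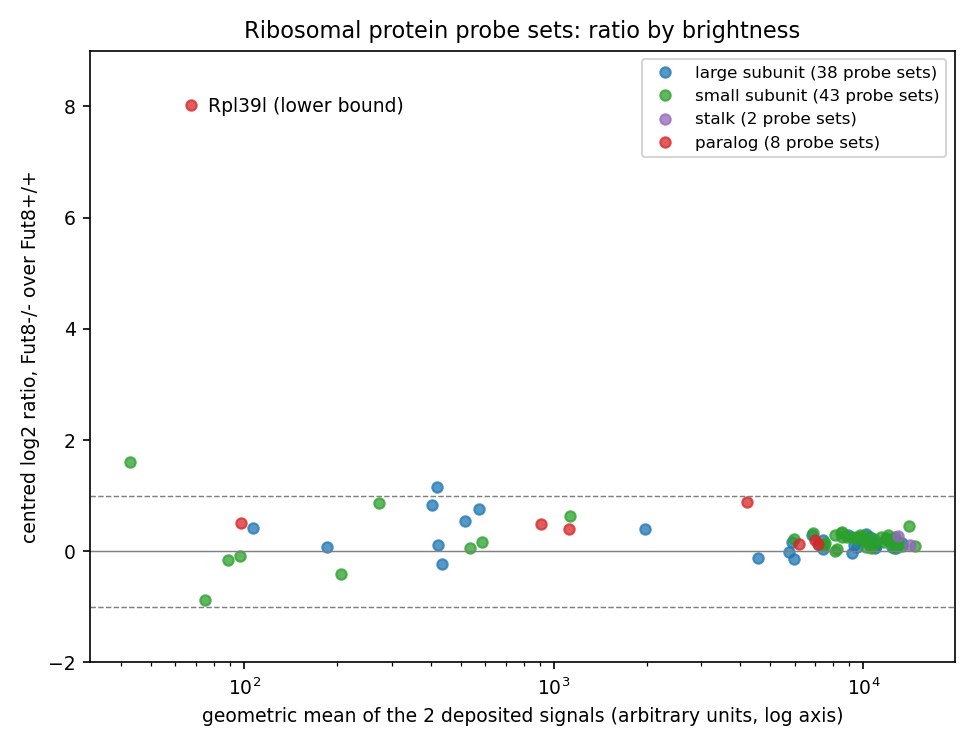
Centred log2 ratio (Fut8-/- over Fut8+/+, vertical axis) of each of the 91 measured member probe sets against the geometric mean of its 2 signals (horizontal log axis, arbitrary units). Points are probe sets coloured by group, dashed lines mark 2-fold; probe sets at high signal lie in a narrow band just above 0, the dim ones scatter, and Rpl39l lies at 8.02, a lower bound.

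Rpl39l encodes a paralog of the small exit tunnel protein Rpl39 and gave a bright signal in Fut8-/- cells and one below background in Fut8+/+ cells. Its single probe set had a signal of 2752 on the Fut8-/- array, against 1.66 on the Fut8+/+ array, which is below the floor. The difference was therefore at least 259-fold, or at least 8.02 on the log2 scale. This bound depends on the floor: it was 6.36 with the floor at the 60th percentile of signals and 9.89 with it at the 20th. Rpl39, the canonical gene, lies on chromosome X and had signals of 114 in Fut8-/- and 100.001 in Fut8+/+ at its single probe set of that name alone, a log2 ratio of 0.41. The ratio at the Rpl39 probe set was thus also above 0, by 0.19 without centring. That probe set was dim for the family, whose canonical members had a lower quartile of mean signal of 8863. Whether Rpl39l or Rpl39 was the more abundant message was therefore not tested.

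Rpl39l and Rpl39 are shown at their transcription starts, since the paralog was found on 1 array while the canonical gene was found on both, and Rpl22l1 is added as the paralog with the next highest ratio. Each window runs from 250 bases before to 50 bases after the start (RefSeq, GRCm38.p6), 5′ to 3′ on the gene's own strand, with every CCGGAAG, the core of sites for ETS factors, in capitals on either strand. The windows are chr16:10169978-10170277 on the plus strand for Rpl39l, chrX:37085173-37085472 on the minus strand for Rpl39 and chr3:28805258-28805557 on the plus strand for Rpl22l1.
Rpl39l: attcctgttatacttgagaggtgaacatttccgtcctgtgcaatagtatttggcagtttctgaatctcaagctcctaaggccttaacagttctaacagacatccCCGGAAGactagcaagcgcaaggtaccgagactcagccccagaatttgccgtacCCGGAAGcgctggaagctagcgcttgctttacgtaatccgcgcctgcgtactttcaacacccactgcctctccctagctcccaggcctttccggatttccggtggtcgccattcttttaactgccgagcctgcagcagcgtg
Rpl39: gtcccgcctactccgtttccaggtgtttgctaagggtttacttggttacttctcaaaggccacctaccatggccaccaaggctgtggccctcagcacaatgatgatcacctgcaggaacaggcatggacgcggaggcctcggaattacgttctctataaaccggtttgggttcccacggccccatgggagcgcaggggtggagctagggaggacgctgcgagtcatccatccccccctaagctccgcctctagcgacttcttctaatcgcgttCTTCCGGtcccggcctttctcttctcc
Rpl22l1: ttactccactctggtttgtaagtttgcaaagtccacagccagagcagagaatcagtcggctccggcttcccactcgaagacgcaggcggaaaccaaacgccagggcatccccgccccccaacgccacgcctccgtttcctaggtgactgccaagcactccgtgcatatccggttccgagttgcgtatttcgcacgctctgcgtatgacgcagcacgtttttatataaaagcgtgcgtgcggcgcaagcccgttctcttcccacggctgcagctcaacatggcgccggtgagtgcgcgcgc

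The Rpl39l window held 2 matches, beginning 146 and 92 bases before the start, the Rpl39 window held 1 on the reverse strand beginning at base 24 of the transcript, and the Rpl22l1 window held 0. The core was found in 41.9% of 43 windows of canonical members, 18.6% of windows of measured genes and 8.86% of all 32851 windows. A second motif searched on both strands, ATGGCGG (the core of YY1 sites), occurred in none of the 3 windows shown, in 5 of the 43 canonical windows (11.6%), in 8.46% of windows of measured genes and in 4.05% of all windows. An unbroken run of at least 8 pyrimidines (C or T) that reached the 20 bases around the start, where the tract of ribosomal protein messages lies, was present in 18 of 43 canonical windows (41.9%) against 13.9% of windows of measured genes and 13.7% of all windows. A run counted whether it lay before or after the start, so it need not be part of the message. The longest run there, of any length, was 7 bases for Rpl39l, 8 for Rpl39 and 10 for Rpl22l1. By the annotated start, the Rpl39l run ended just before the transcript, while those of Rpl39 and Rpl22l1 lay within it. The windows held 17 CpG dinucleotides for Rpl39l, 17 for Rpl39 and 30 for Rpl22l1, beside a median of 22 in canonical members and 21 in measured genes. By contrast, the 2 windows of the muscle paralog Rpl3l held 2 and 3 CpG and no match to either motif. These matches describe letters in the reference sequence and say nothing of binding.

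The genes on either side of Rpl39l on chromosome 16 lay far below its ratio. The nearest coding genes on the array were Grin2a, a glutamate receptor gene below the floor on both arrays (1.07 in Fut8-/- and 9.34 in Fut8+/+), and Atf7ip2, below the measured limit (30.3 in Fut8-/- and 18.3 in Fut8+/+). Among the 5 measured genes on each side, log2 ratios ran from -1.60 to 0.90. Their median was 0.31, the highest of all settings tried: it was 0.09 without centring, 0.14 with no filter on dim genes or with a stricter one, and 0.18 with the median over each gene's probe sets. The lowest was that of the epithelial membrane protein gene Emp2, with signals of 403 in Fut8-/- and 1426 in Fut8+/+, 3.04-fold lower. The others included Usp7, which encodes a deubiquitinase (1546 in Fut8-/- and 1461 in Fut8+/+), and Pmm2, a phosphomannomutase gene of glycan synthesis (256 in Fut8-/- and 186 in Fut8+/+).

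**Figure D2:**
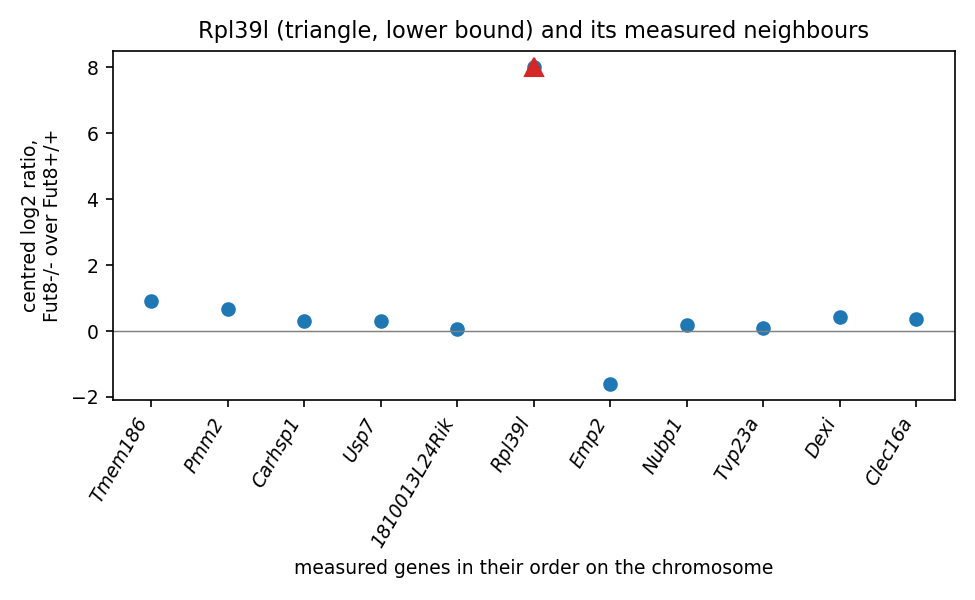
Centred log2 ratio (Fut8-/- over Fut8+/+, vertical axis) of Rpl39l (triangle, a lower bound) and of the 5 measured genes on each side of it (dots), in their order along the chromosome. Rpl39l lies at 8.02 and the neighbours between -1.60 and 0.90.

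Markers of the tissues known for Rpl39l were examined beside it. None of 14 germ cell and testis markers was measured, and their summed signal was 91.9 in Fut8-/- and 90.0 in Fut8+/+; Ddx4, Prm1, Tnp1 and Mael were at or below the floor on both arrays. Of 11 pluripotent cell markers 4 were measured (Sox2, Dppa4, Dppa5a and Esrrb), with a summed signal over the list of 152 in Fut8-/- and 339 in Fut8+/+, and Nanog and Zfp42 were below the floor on both. Dppa4 was at least 11.0-fold and Sox2 at least 9.60-fold lower in Fut8-/-. Dppa5a was 2.67-fold higher from dim signals of 38.1 in Fut8-/- and 16.6 in Fut8+/+. Esrrb was 2.47-fold higher, also from dim signals (35.2 in Fut8-/- and 16.6 in Fut8+/+). Each of these 4 reached the measured limit, after scaling, on 1 array alone, so its direction follows from which array that was.

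Markers of other cell types a culture could hold also differed. Of 10 epithelial markers 3 were measured, and the list summed to 315 in Fut8-/- and 122 in Fut8+/+. The keratin gene Krt19 (155 in Fut8-/- and 2.08 in Fut8+/+) was at least 14.6-fold and the desmosome gene Dsp (71.1 in Fut8-/- and 5.07 in Fut8+/+) at least 6.70-fold higher. Epcam was 2.43-fold lower (15.9 in Fut8-/- and 44.9 in Fut8+/+), and Cdh1 and Krt18 were below the floor on both arrays. Each of the 3 measured genes reached the measured limit on 1 array alone, so its direction follows from which array that was. Of 7 macrophage markers 2 were measured, Cd14 (1.69-fold lower) and Csf1r (1.18-fold lower), and the list summed to 146 in Fut8-/- and 232 in Fut8+/+. None of 6 endothelial markers was measured, with sums of 45.7 in Fut8-/- and 70.4 in Fut8+/+. The part of any of these cell types in the Rpl39l difference was not tested.

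Rpl22l1, the paralog of the RNA-binding large subunit protein Rpl22, came next. Its probe set had signals of 5314 in Fut8-/- and 3333 in Fut8+/+, a log2 ratio of 0.89 or 1.86-fold, and it stayed above 0 under every setting tried that kept the probe set (lowest 0.67, without centring). In mice, loss of Rpl22 is known to raise Rpl22l1. Here the brightest Rpl22 probe set had signals of 10507 in Fut8-/- and 11505 in Fut8+/+, a log2 ratio of 0.09 that became -0.13 without centring. The other Rpl22 probe sets gave 0.04 and -0.23.

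Rpl7l1, the paralog of Rpl7, had 3 probe sets that gave nearly the same ratio. Their log2 ratios ran from 0.41 to 0.50, the brightest with signals of 1192 in Fut8-/- and 1047 in Fut8+/+. Rpl7 had a log2 ratio of 0.17 (10575 in Fut8-/- and 10906 in Fut8+/+), or -0.04 without centring. The difference between paralog and canonical gene at their brightest probe sets was 0.23, smaller than the 0.40 SD between probe sets pooled over all genes. The 3 Rpl7 probe sets gave 0.11 to 0.20, below the range of Rpl7l1.

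Rps27l, which p53 induces in human and mouse cells, was the 1 measured paralog with a lower ratio than its canonical gene. Its brightest probe set had signals of 6932 in Fut8-/- and 7393 in Fut8+/+, its 3 probe sets gave log2 ratios from 0.12 to 0.20, and the brightest gave -0.09 without centring. Rps27, a zinc-finger protein of the small subunit, had signals of 342 in Fut8-/- and 218 in Fut8+/+, a log2 ratio of 0.87. This was the highest ratio of any canonical gene, and it rests on 1 dim probe set. Paralog minus canonical gene was therefore -0.74 for Rps27l, against 0.80 for Rpl22l1, so the pairs differed in sign.

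The remaining paralogs were too dim to compare. Rpl3l, known from heart and skeletal muscle, had signals of 11.7 in Fut8-/- and 1.69 in Fut8+/+, so neither array reached the measured limit. Of 15 muscle markers 3 were measured, their list summing to 568 in Fut8-/- and 363 in Fut8+/+, while Myod1, Myog and Myh6 were not among them. All 3 were higher in Fut8-/-, 2 of them by at least 2-fold, beside 6.08% of all measured genes. The 3 were Ckm (44.6 in Fut8-/- and 22.8 in Fut8+/+, 2.27-fold), Tnnt2 (406 in Fut8-/- and 209 in Fut8+/+, 2.27-fold) and Acta1 (1.46-fold). Ckm and Acta1 reached the measured limit on the Fut8-/- array alone, which fixes their direction. Actc1, below the limit on both arrays, went the other way (7.17 in Fut8-/- and 29.1 in Fut8+/+). Rps4l had signals of 0.739 in Fut8-/- and 0.582 in Fut8+/+. Rps4x, its canonical counterpart and X-linked, had signals of 12753 in Fut8-/- and 13873 in Fut8+/+, a log2 ratio of 0.10 that was -0.12 without centring. No probe set carried Rpl3 as its only symbol.

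**Figure D3:**
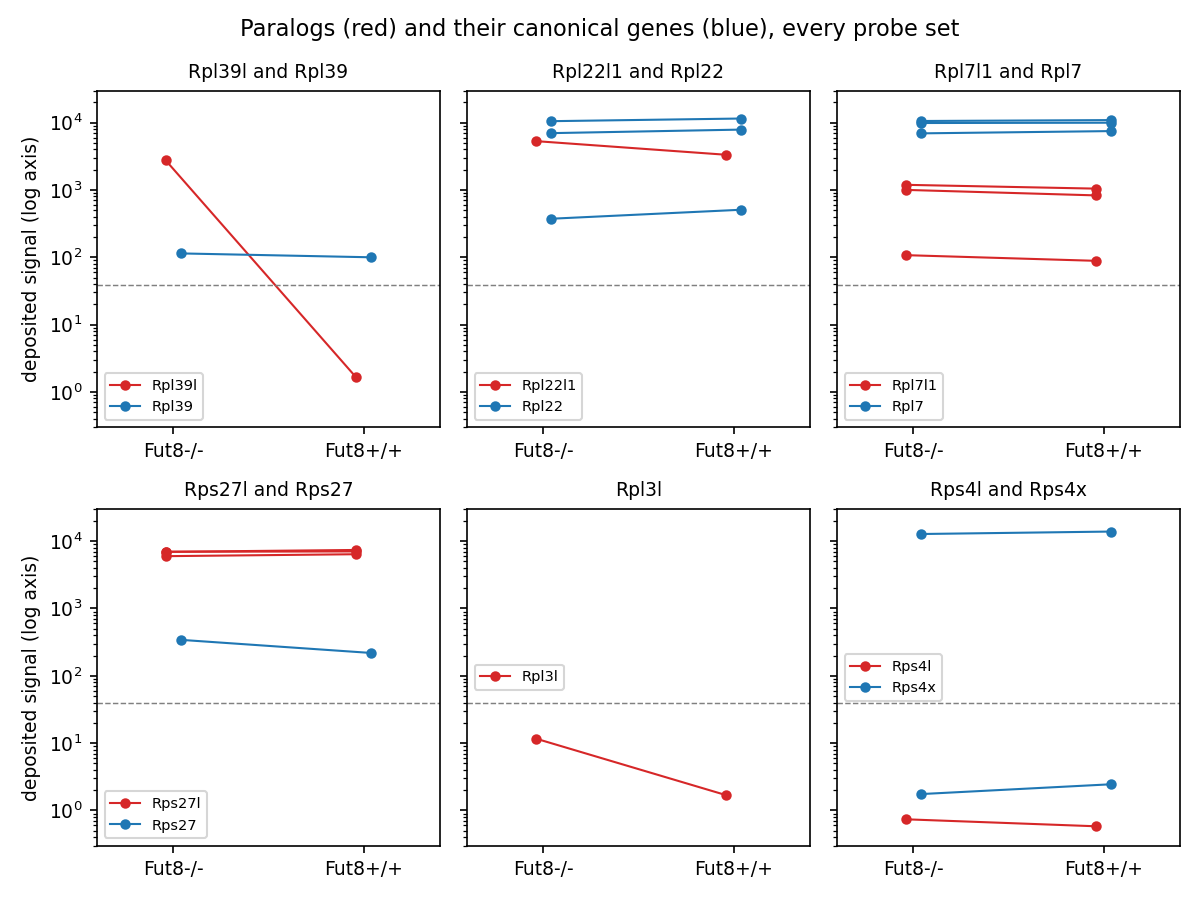
Deposited signal (vertical log axis, arbitrary units) of every probe set of the 6 paralogs (red) and of their canonical genes (blue), with Fut8-/- left and Fut8+/+ right and a line joining the 2 arrays. The dashed line is the measured limit of 39.1. Rpl39l crosses it, and Rpl3l, Rps4l and a second probe set of Rps4x lie below it on both arrays. Rpl22l1 (5314 in Fut8-/- and 3333 in Fut8+/+) and Rps27 (342 in Fut8-/- and 218 in Fut8+/+) fall to the right. The remaining lines above the limit run closer to level.

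The 41 measured canonical genes had a median log2 ratio of 0.20 after centring and -0.02 as deposited, so their direction depends on the centring. Their ratios ran from -0.04 to 0.87 with an SD of 0.17, against a median of 0.00 and an SD of 0.90 over all measured genes. The 20 large subunit genes had a median of 0.18, the 19 small subunit genes 0.21 and the 2 stalk genes 0.20. The 42nd canonical gene, Rps16, was at or near 0 at its single probe set of that name alone (0.285 in Fut8-/- and 1.16 in Fut8+/+) and was not measured.

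The narrow spread belonged to the bright probe sets. For the 34 canonical genes with both signals of at least 1000 the SD of the log2 ratio was 0.11 and the median 0.20, whereas for the other 7 the SD was 0.31 and the median 0.41. Genes outside the family were also less spread when bright: the SD was 0.42 for 1513 other genes with both signals of at least 1000. In the 50 other genes whose mean signal reached the lower quartile of the canonical members (8863) the SD was 0.18 and the median 0.18. Spiked hybridisation controls, which carry no cell RNA, had a median of 0.16 (18 probe sets). Both medians lie close to the 0.20 of the canonical genes. The highest signal of any probe set was 15177 in Fut8-/- and 16872 in Fut8+/+, and whether the brightest signals are compressed was not tested.

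**Figure D4:**
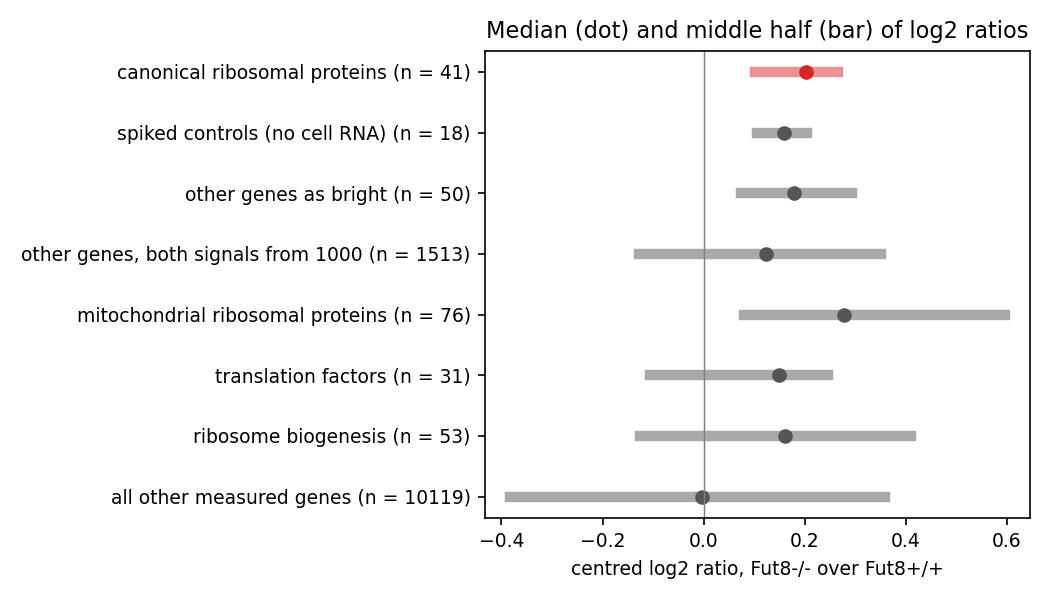
Median (dot) and range between the quartiles (bar) of centred log2 ratios, Fut8-/- over Fut8+/+ (horizontal axis), for the canonical ribosomal proteins (red) and 7 other sets of probe sets or genes (grey). The canonical median of 0.20 lies beside those of the spiked controls (0.16) and of other genes as bright (0.18); without centring the canonical median is -0.02.

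Among the proteins of the peptide exit tunnel, 4 of 8 listed genes had a probe set of their own. All 4 lay within 1.5-fold, as did most measured genes, of which 14.4% were higher and 16.6% lower by at least that much. Rpl4, which narrows the tunnel, had signals of 11908 in Fut8-/- and 11781 in Fut8+/+ (log2 ratio 0.23). Rpl19 had 10659 in Fut8-/- and 10426 in Fut8+/+ (0.25), and Rpl35, at the tunnel's outlet, 12049 in Fut8-/- and 13395 in Fut8+/+ (0.07). The fourth was Rpl39, described above.

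In the stalk, which recruits the elongation factors, Rplp0 as its scaffold had 13197 in Fut8-/- and 12664 in Fut8+/+ (log2 ratio 0.28). Rplp2, which binds Rplp0 as a dimer with Rplp1, had 13625 in Fut8-/- and 14623 in Fut8+/+ (0.12). Rpl12, at the base of the stalk, gave 0.12 from a dimmer probe set (408 in Fut8-/- and 437 in Fut8+/+). All 3 ratios lay within the 0.40 spread between probe sets of a gene.

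Rpl11 had the lowest ratio of the canonical genes. With Rpl5 and the 5S rRNA it forms a particle that also binds the p53 regulator Mdm2. Its signals were 8386 in Fut8-/- and 10039 in Fut8+/+, a log2 ratio of -0.04 after centring. Next above it came Rps3, which lines the mRNA entry channel (7527 in Fut8-/- and 8768 in Fut8+/+, log2 ratio -0.00), and Rps19, the gene most often mutated in Diamond-Blackfan anaemia (7709 in Fut8-/- and 8756 in Fut8+/+, 0.03). Rps6, the S6 kinase substrate, gave 0.06 (507 in Fut8-/- and 567 in Fut8+/+). The 6 Diamond-Blackfan anaemia genes with a measured probe set had a median of 0.11, and Rps24 was highest among them at 0.27.

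At the upper end, 2 canonical genes passed 1.5-fold. These were Rps27, given above, and Rps25, a small subunit protein known for its part in initiation at viral internal entry sites, with signals of 1304 in Fut8-/- and 976 in Fut8+/+ (log2 ratio 0.64). Rpl14 followed with 579 in Fut8-/- and 462 in Fut8+/+ (0.55). Rps3a1 had 15177 in Fut8-/- and 12930 in Fut8+/+ (0.45), the highest ratio among canonical genes with both signals of at least 1000. Rps27, Rpl14 and Rpl39 each rested on 1 probe set with signals under 1000, and Rps25 on 1 that was under 1000 on the Fut8+/+ array.

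**Figure D5:**
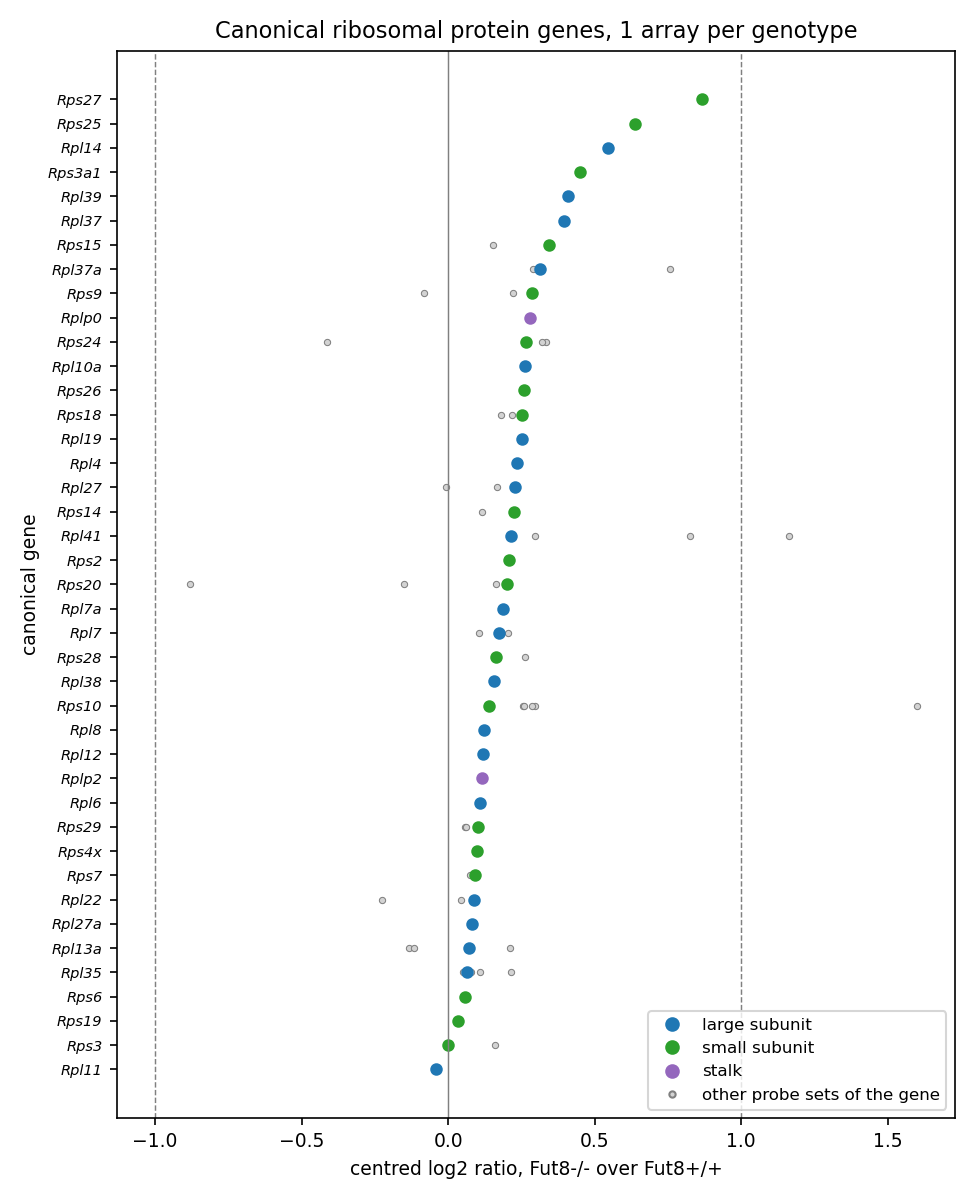
Centred log2 ratio (Fut8-/- over Fut8+/+, horizontal axis) of the 41 measured canonical genes, ordered from Rps27 (0.87) to Rpl11 (-0.04). Coloured points are each gene's brightest probe set, small grey points its other probe sets above the floor, and dashed lines mark 2-fold; without centring every point lies 0.22 further left.

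Where a gene had several measured probe sets they mostly gave similar ratios, and the widest departures were at dim probe sets. Across the 20 member genes with at least 2, the range of log2 ratios within a gene had a median of 0.18, and 13 had the same sign throughout. The widest was Rps10, whose 5 bright probe sets gave 0.14 to 0.30 while a dim one (68.9 in Fut8-/- and 26.5 in Fut8+/+) was 3.03-fold higher. Rps20 ranged from -0.88 at a dim probe set (51.2 in Fut8-/- and 110 in Fut8+/+) to 0.20 at its brightest. Rpl41, which encodes a very short basic peptide, ranged from 0.21 at its brightest probe set to 1.16 at one with 583 in Fut8-/- and 303 in Fut8+/+. Ribosomal protein genes have many near-identical processed pseudogenes, and a probe set may read them too: of the 41 brightest probe sets, 13 carry the platform's mark for cross-hybridising probes, 2 that for probes shared by several genes and 16 that for several transcripts. With the 18 canonical genes that have a measured unmarked probe set, the median was 0.19, the SD 0.53, and 1 gene, Rps10 at its dim probe set, was at least 2-fold higher.

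A further 110 probe sets list several symbols of which at least 1 fits the family's naming pattern, and were not counted as members. The 101 measured ones had a median log2 ratio of 0.20, the same as the canonical genes, and 1 of them passed 2-fold upward and 0 downward. Rpsa and Fau, ribosomal proteins whose names fall outside the pattern, gave 0.26 (14086 in Fut8-/- and 13712 in Fut8+/+) and 0.04 (7806 in Fut8-/- and 8861 in Fut8+/+).

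Canonical genes differed a little by chromosome. On chromosomes 4, 7 and 12, where the other measured genes had medians of -0.22, -0.32 and -0.38, the canonical members had medians of 0.07, 0.08 and 0.10, the lowest of the 15 chromosomes that hold a measured member. The highest, 0.66 on chromosome 3 and 0.55 on chromosome 9, come from 2 and 3 genes. On all 15 chromosomes the canonical median exceeded that of the other genes, by 0.02 on chromosome 2 to 0.51 on chromosome 9. This held on all 7 chromosomes with at least 3 canonical genes, but on 4 of them after quantile or loess normalization, both of which remove a dependence of the ratio on brightness. The X-linked members Rpl39 and Rps4x gave 0.41 and 0.10, beside a median of 0.02 for 322 other X-linked genes. The cultures differed in sex-linked transcripts, with Xist at 15.2 in Fut8-/- and 656 in Fut8+/+ and the Y-linked genes Eif2s3y (2845 in Fut8-/- and 7.06 in Fut8+/+), Kdm5d (655 in Fut8-/- and 0.404 in Fut8+/+) and Uty (413 in Fut8-/- and 7.59 in Fut8+/+), so sex and genotype cannot be told apart here.

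Of 53 ribosome biogenesis genes 1 was at least 2-fold higher, against 6.08% of all measured genes, and 0 were lower by that much, against 8.46%, with a median of 0.16. The exception was Nop16, a nucleolar factor of the large subunit, with 1278 in Fut8-/- and 571 in Fut8+/+ (log2 ratio 1.38), followed by Rrp9 (0.95) and Tsr1 (0.74). Among nucleolar proteins with bright signals, Npm1 gave 0.43 and Ncl 0.49, while Fbl gave -0.05 and Nop58 -0.17. Of the 53 genes 34 lay above 0 after centring and 19 below. With a limit of 1.5-fold 10 of the 53 were higher, against 14.4% of all genes, and 1, Mdn1, was lower, against 16.6%. Among 1513 genes outside the family with both signals of at least 1000, 1.85% were at least 2-fold higher and 1.32% lower. Not all of the 53 were that bright.

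Within 2-fold lay 85.5% of all measured genes, and 96.8% of the 1513 genes outside the family with both signals of at least 1000. All 31 translation factors did so too, with a median of 0.15. Their largest differences were those of Btf3, a subunit of the nascent chain complex (6437 in Fut8-/- and 4068 in Fut8+/+, log2 ratio 0.88), and of the eIF3 subunits Eif3c (3705 in Fut8-/- and 7503 in Fut8+/+, -0.80) and Eif3m (0.80). Eef1a1 and Tpt1, whose messages carry the same kind of 5′ pyrimidine tract as those of ribosomal proteins, gave 0.15 and 0.16.

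The 76 mitochondrial ribosomal protein genes, whose products form the separate ribosome of the organelle, had a median of 0.28 and an SD of 0.42. The spread follows the signal range, which differs between the mitochondrial and cytosolic sets, so their SDs are not compared. At least 2-fold higher were 4 of them, led by Mrps27 (311 in Fut8-/- and 147 in Fut8+/+, log2 ratio 1.30), Mrpl55 (1.21) and Mrpl13 (1.08), and 1, Mrpl33, was at least 2-fold lower (1344 in Fut8-/- and 3215 in Fut8+/+). These are 5.26% higher and 1.32% lower, beside 6.08% and 8.46% of all measured genes. At 1.5-fold 20 were higher and 1 lower, beside 14.4% and 16.6% of all genes.

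Regulators of ribosome output gave 2 of 13 measured genes at least 2-fold lower, against 8.46% of all measured genes, and 0 higher, against 6.08%. The other 84.6% lay within 2-fold, close to the 85.5% of all measured genes. These were Mycn, a transcriptional activator of ribosome genes, at least 3.81-fold lower with signals of 6.26 in Fut8-/- and 47.1 in Fut8+/+, and Eif4ebp1, the mTOR-controlled inhibitor of cap-dependent initiation, 2.14-fold lower with 2492 in Fut8-/- and 6203 in Fut8+/+. For Mycn only the Fut8+/+ array passed the measured limit, so this gene could be counted as lower but not as higher. Eif4ebp1 passed the limit on both arrays. Myc had a log2 ratio of 0.34 and the mTOR kinase gene (Mtor) -0.58, from 222 in Fut8-/- and 385 in Fut8+/+.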

How the data were processed

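Labelled RNA from 1 Fut8-/- and 1 Fut8+/+ MEF culture was measured on mouse GeneChip arrays. The authors deposited linear signal intensities for each probe set, made with GCOS per the submitters' processing notes; the GCOS version, algorithm, scaling and any detection call are unstated in the labels. Genotypes came from the labels. Only probe sets with 1 symbol in the platform annotation were used (34945; 932 had several, 9160 none, 64 were controls), and the probe set with the highest mean log2 signal stood for a gene.

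Log2 ratios were centred on the median of the 23885 probe sets whose signals both exceeded their array's 40th percentile, signals were scaled first and then floored at the pooled 40th percentile (12.3), and a gene was measured if its brighter array reached the 60th (39.1). With 1 array per genotype there is no test or p-value; precision is limited by the number of arrays. Paralogs were members with an l after the number. Named genes were Fut8, all paralogs and their canonical genes, canonical genes past 2-fold, the 5 highest and 5 lowest, stalk, exit tunnel, 5S particle and X-linked members, and up to 3 genes of each other list by absolute ratio; any others were picked with their values known. The members and lists were chosen with earlier results of these data known. Gene order, chromosomes and windows came from RefSeq, assembly GRCm38.p6, and all 48 members matched by gene identifier; 42 had a window. The steps were tested on simulated data and run in Python 3.11.15 with numpy 2.4.6 and pandas 2.3.3. Alternatives changed the centring, normalization, floor, filter, probe set choice and fold.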

Additional observations from a re-analysis of the deposited data

How the results depend on the processing

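No paired analysis was possible because each genotype has 1 array. With no replicates, a log2 ratio or median was held to have moved when it shifted by more than the 0.40 spread between probe sets of a gene, and a count or SD when it changed by more than 1.5 times. The canonical median stayed between -0.02 (no centring) and 0.21 (median over all probe sets) under 11 alternatives, 2 of which, centring on other bright genes (0.02) and the probe sets of several symbols (0.20), were chosen after seeing the data. The Rpl39l ratio was 9.89 with the floor at the 20th percentile and 6.36 with it at the 60th, and between 7.91 and 8.05 otherwise. The count of canonical genes at least 2-fold higher was 1 with unmarked probe sets only, 2 with a limit of 1.5-fold and 2 when every probe set was counted on its own, an alternative also added after seeing the data; it was 0 under the other 9, and the count lower was 0 under all 12. The SD was 0.53 with unmarked probe sets only, where 18 genes were left. The number of chromosomes with a higher canonical median was 4 after quantile normalization, 4 after loess and 2 with unmarked probe sets, where fewer chromosomes hold enough genes. Rps27l changed sign, to -0.09 without centring, -0.05 after quantile normalization, -0.01 after loess and -0.05 with centring on bright genes; Rpl22 likewise ran from -0.13 to 0.09. The median of the genes around Rpl39l ran from 0.09 to 0.31. Rpl22l1 and Rps27l have no unmarked probe set. With no detection calls, signals near the floor carry no order.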
